A study of Homo sapiens with 8 samples.

Results

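Intronic peaks outside promoters were studied in MBD-seq data of 8 neuroblastoma (NB) cell lines. A peak, which is a stretch of DNA enriched after capture of methylated fragments, was taken as intronic when 3 conditions held. It lay on an autosome with its midpoint inside the body of a protein-coding gene, its midpoint was in no annotated exon of any gene, and it was not between 1500 bp upstream and 1000 bp downstream of any annotated transcription start site (TSS). This rule gave 289340 intronic peaks among the 702011 autosomal peaks, and among 711243 peaks in all. Of the lines, 4 carry *MYCN* amplification (MNA), namely IMR-32, N206, CHP-902R and LAN-2, and 4 are *MYCN* single copy, namely SH-SY5Y, CLB-GA, SJNB-1 and SK-N-AS. NB is a childhood tumour of the sympathetic nervous system, and *MYCN* encodes a transcription factor whose gene is amplified in a group of aggressive tumours. Each line was measured once, without any drug treatment named in the labels, so that a line is the replicate of its *MYCN* group and the tests measure the spread between lines. An established line is a culture from 1 tumour and carries that tumour's other gains and losses of DNA along with its *MYCN* status, and the effects of both cannot be told apart.

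In MBD-seq, sheared genomic DNA is passed over the domain of MBD2 that binds methylated CpG, which holds fragments with several methylated CpG sites, and the captured fragments are sequenced. CpG sites in the bodies of genes and between genes are methylated in most cells, while CpG islands at active promoters are usually free of methylation. Introns make up most of the length of genes. They contain splice signals, enhancers and alternative start sites, and they hold many copies of interspersed repeats such as Alu elements, a primate repeat family that is rich in CpG and is mostly methylated in somatic cells.

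To show what such peaks look like, the reference sequence is printed for regions in *PLEKHA8* and *CDH20*. Regions were ranked by the mean percentile of their peak scores within the lists, not by the scores themselves. The region in *PLEKHA8* was among the 3 highest of those with a peak in all 8 lines. The region in *CDH20* was the highest of those with a peak in every MNA line and in no single copy line. The *CDH20* sequence was added after its values were seen. At most 300 bases are given around the centre of the interval that the peaks share. The sequences are of the forward strand of GRCh37, and capitals mark each CpG, the site that MBD2 binds when it is methylated. The *PLEKHA8* stretch lies at chr7:30155328-30155627, inside the gene body but outside the introns of its canonical transcript, and holds 17 CpG. The *CDH20* stretch lies at chr18:59137331-59137630, in intron 1 of 11, and holds 11 CpG.
PLEKHA8: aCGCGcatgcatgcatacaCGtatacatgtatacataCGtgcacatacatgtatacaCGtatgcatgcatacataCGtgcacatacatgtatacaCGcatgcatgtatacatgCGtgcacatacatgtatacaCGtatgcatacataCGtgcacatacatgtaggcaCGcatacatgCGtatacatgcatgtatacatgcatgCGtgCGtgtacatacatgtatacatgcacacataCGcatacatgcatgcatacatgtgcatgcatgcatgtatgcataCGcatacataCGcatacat
CDH20: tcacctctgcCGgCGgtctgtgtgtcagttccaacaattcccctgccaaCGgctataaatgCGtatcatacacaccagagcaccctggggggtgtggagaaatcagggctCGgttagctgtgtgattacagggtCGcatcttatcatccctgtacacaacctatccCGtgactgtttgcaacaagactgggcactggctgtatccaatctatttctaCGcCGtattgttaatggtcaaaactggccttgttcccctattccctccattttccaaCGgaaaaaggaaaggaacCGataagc

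The sequences were of different kinds. In the *PLEKHA8* sequence, from a gene for a glycolipid transfer protein, the 8 bases CATACATG were present 8 times. In the *CDH20* sequence, from a gene for a cadherin adhesion protein, no 8 bases were present more than once. All windows of 45 bp of both sequences occurred once in the GRCh37 sequence, sex chromosomes included. Another kind was seen in intron 12 of 23 of *SIPA1L1*, a gene for a Rap GTPase-activating protein. The region there had the highest mean score percentile of those with a peak in all lines. It was made in part of an Alu element, and 67.01% of the windows of the whole region occurred once. In the 300 bases around the centre of the interval that its peaks share, 8.20% of the windows did. The position of the shared part is thus less certain than that of the *PLEKHA8* and *CDH20* sequences.

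The number of intronic peaks differed between lines in step with the length of the lists. The MNA lines had 34628 (IMR-32), 39048 (N206), 38931 (CHP-902R) and 48867 (LAN-2) intronic peaks. The single copy lines had 31405 (CLB-GA), 33697 (SH-SY5Y), 34653 (SK-N-AS) and 28111 (SJNB-1). The groups overlapped only through IMR-32 and SK-N-AS, with 34653 in SK-N-AS against 34628 in IMR-32, and LAN-2 stood above all other lines. The means were 40368.5 ± 6027 for MNA and 31966.5 ± 2909 for single copy lines (SD, n = 4 each). The difference of 8402 peaks did not pass the two-sided exact permutation test over lines (p = 0.0571, 0.229 after Benjamini-Hochberg adjustment over 8 measures), for which 0.0286 is the smallest p possible with 4 lines against 4. It fell to 5569 peaks without LAN-2 (exact p = 0.0857). With the same number of peaks taken from each list it was 323 peaks (exact p = 0.571).

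As a share of the autosomal peaks, the intronic peaks varied little. The share was 39.4% in IMR-32, 42.7% in N206, 40.1% in CHP-902R and 44.5% in LAN-2. In the single copy lines it was 40.7% in CLB-GA, 40.2% in SH-SY5Y, 40.8% in SK-N-AS and 40.1% in SJNB-1. The MNA lines thus spread on both sides of the single copy lines, whose values lay within 1 percentage point of each other. The 95% Wilson intervals, which cover counting error only, were narrower than the spread between lines. The difference of 1.21 points between the groups was within that spread (two-sided exact permutation test, p = 0.4, adjusted 0.571). The length of genome covered by intronic peaks was 21.9 ± 2.30 Mb in MNA and 17.1 ± 2.44 Mb in single copy lines (SD, n = 4 each), which gave p = 0.0286 in the exact test but 0.229 after adjustment over the 8 measures. The other measures, which were the median width, the CpG and GC content, the share of peaks with a score of at least 100 and the share near *MYCN*, gave exact p-values from 0.2 to 0.857.

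**Figure D1:**
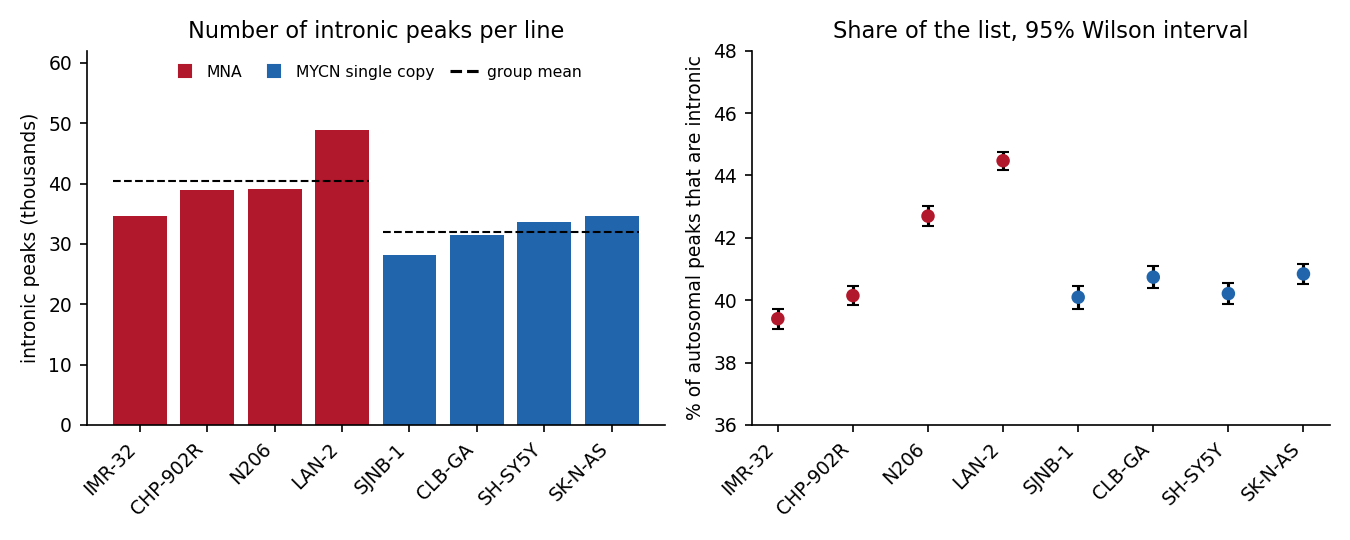
Left, the number of intronic peaks in each line (bars, in units of 1000) with the mean of each *MYCN* group (dashed), with SJNB-1 lowest (28111) and LAN-2 highest (48867). Right, intronic peaks as a percentage of autosomal peaks in each line, with 95% Wilson intervals on an axis that starts at 36%, from 39.4% in IMR-32 to 44.5% in LAN-2.

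Near the amplified gene itself, within 1 Mb of *MYCN*, IMR-32 had 102, CHP-902R 70, N206 33 and LAN-2 29 intronic peaks, while the single copy lines had 20 to 25. These counts did not overlap between the groups. As a share of the intronic peaks of a line they did, since the shares were 0.0593% to 0.295% in MNA lines and 0.0637% to 0.0783% in single copy lines (two-sided exact permutation test, p = 0.2, adjusted 0.533). More copies of the region and more methylated DNA per copy cannot be told apart in a peak list.

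Intronic sequence that a peak could fall in, here called eligible intron, was 1017 Mb, or 37.9% of the autosomal bases and 35.98% of the autosomal CpG. Intronic peaks were on average 41.1% ± 1.68 (SD, n = 8) of the autosomal peaks of a line. Their density was 27.6 per Mb in SJNB-1, had a median of 34.0 over the lines, and reached 48.03 per Mb in LAN-2. Elsewhere on the autosomes it was 25.2 to 36.6 per Mb in the same lines. In all 8 lines the introns were denser than the rest of the autosomes, by 0.19 on the log2 scale or 1.14-fold on average (two-sided exact permutation test within lines, p = 0.00781, the smallest p that 8 lines allow, and 0.00955 after adjustment over 11 comparisons within lines). This order was not kept for high scores. When peaks had to score at least 100, the difference was -0.21 on the log2 scale (exact p = 0.0156). When the whole peak had to lie in eligible intron, the difference was -0.045 (exact p = 0.297). Under that rule peaks that reach out of the intron count as elsewhere, which lowers the value by construction.

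Between classes of sequence, intronic peaks were far less dense than those in coding exons. Coding exons outside promoter windows had a median of 179 peaks per Mb over the lines, promoter windows 55.2, introns 34.0 and intergenic sequence 25.1. Per 1000 CpG, the unit that takes out how many sites can be methylated, coding exons still had the most of these 4 classes with 6.64, followed by introns with 3.598, intergenic sequence with 2.96 and promoter windows with 2.82. Promoters thus came second of the 4 classes per length and last per CpG. Other exon sequence, which is non-coding, lay close to introns with medians of 37.6 peaks per Mb and 3.32 per 1000 CpG. Eligible intron holds 0.946 CpG per 100 bp, against 2.70 in coding exons, 1.95 in promoter windows and 0.847 in intergenic sequence.

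**Figure D2:**
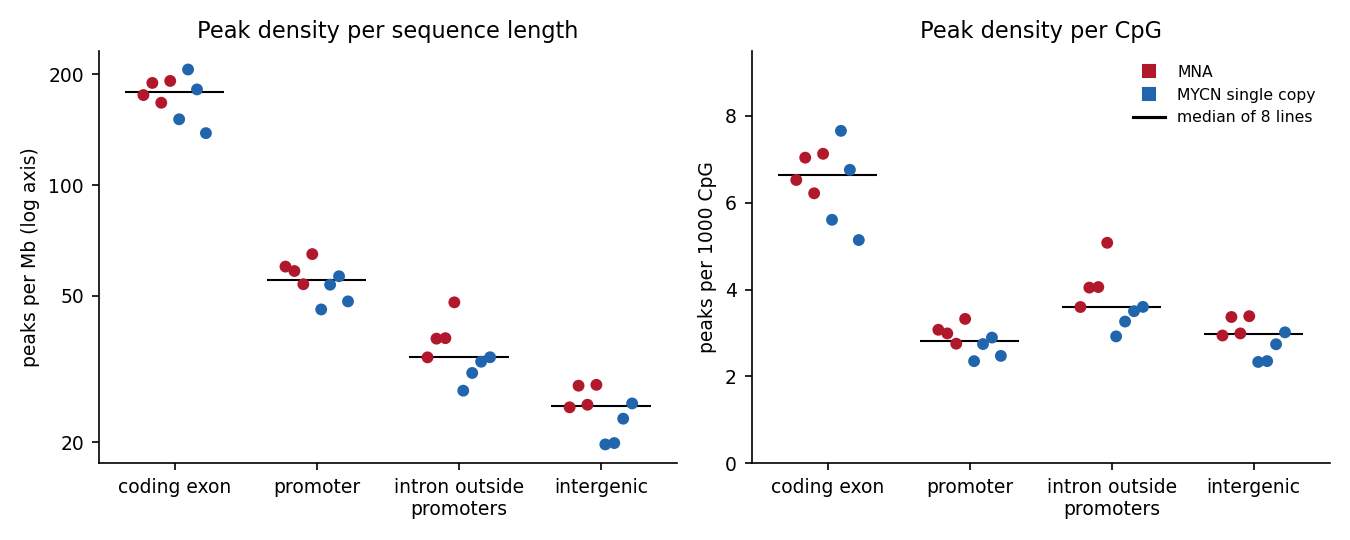
Peak density of each line (points, red MNA, blue *MYCN* single copy) in 4 classes of autosomal sequence with the median of the 8 lines (bars), per Mb on a log axis (left) and per 1000 CpG (right). Introns had medians of 34.0 peaks per Mb and 3.598 per 1000 CpG, and promoter windows 55.2 and 2.82.

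The peaks themselves were short and of moderate CpG content. The lowest median width was 405 bp, in CLB-GA, and the highest 531 bp, in IMR-32, while the median CpG content was lowest in SK-N-AS with 2.34 per 100 bp and highest in CLB-GA with 3.004, beside 0.946 in eligible intron as a whole. CLB-GA had the narrowest and the most CpG-dense intronic peaks of the lines, and 8.01% of them met the usual criteria of sequence for a CpG island (GC of at least 50% and an observed to expected CpG ratio of at least 0.6, without a minimum length), against 3.08% to 5.87% in the other lines. The share of high scores of 100 or more, where the score is -10 times the log10 of the peak caller's p-value, was 9.05% in SJNB-1 and 20.1% in LAN-2 at the extremes.

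Within each line, intronic peaks were compared with those of the other classes. Against coding exon peaks they were narrower and poorer in CpG and had fewer high scores, with mean differences of -93.2 bp in the median width, of -0.658 in the CpG per 100 bp and of -10.01 points in the share with a score of at least 100. Against promoter peaks the same differences were -79.4 bp, -0.538 CpG per 100 bp and -5.31 points. Each of these 6 held in the two-sided exact permutation test within lines (p = 0.00781, adjusted 0.00955). Intergenic peaks were much closer. Compared with them, intronic peaks differed by -4.81 bp in width and by -0.0670 in CpG per 100 bp (exact p = 0.0156 and adjusted 0.0156 for each), and by -2.92 points in the share with a score of at least 100 (exact p = 0.00781, adjusted 0.00955).

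Alu sequence, seen in the *SIPA1L1* region, was common in intronic peaks. Of the 16-base words in the centre of that region, the most frequent in the genome was CAAAGTGCTGGGATTA, which belongs to the Alu consensus and occurred 387827 times on the autosomes on either strand. It was searched for on both strands in every peak, as a word chosen after the region's sequence was seen, and an Alu copy with a base change in these letters is not counted. Of the intronic peaks, 26.6% in SH-SY5Y, 28.2% at the median of the lines and 31.9% in LAN-2 held the word. Tiles of 466 bp, the median width of the intronic peaks, cut from eligible intron held it in 7.53% of 2187428 cases. No tiles were cut from the other classes. Differences between classes of peaks are therefore not set against how often the word occurs in the sequence of each class. In all 8 lines intronic peaks held the word more often than intergenic peaks, by 3.92 points on average and by 3.02 to 5.29 points in single lines. They also exceeded promoter peaks by 11.9 points, coding exon peaks by 26.2 points and the intron tiles by 21.1 points (two-sided exact permutation tests within lines, p = 0.00781 for each of the 4, adjusted 0.00977 over 5 tests). The share did not differ beyond the spread of lines between MNA (29.3%) and single copy lines (27.9%, exact permutation p = 0.286, adjusted 0.286).

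Intronic peaks with the word held more CpG than the others in each line, a difference that was not tested. Their median width was 414 to 532 bp and their median CpG content 2.59 to 3.17 per 100 bp, against 2.23 to 2.93 for a line's other intronic peaks, or 2.76 against 2.44 at the median of the lines. When only scores of 100 or more were taken, the word was in 22.8% to 29.8% of the intronic peaks. Since reads in repeats can match several places, the position of such a peak is less certain than that of one in single-copy sequence, and how the mapping treated such reads is not given in the sources used here.

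**Figure D3:**
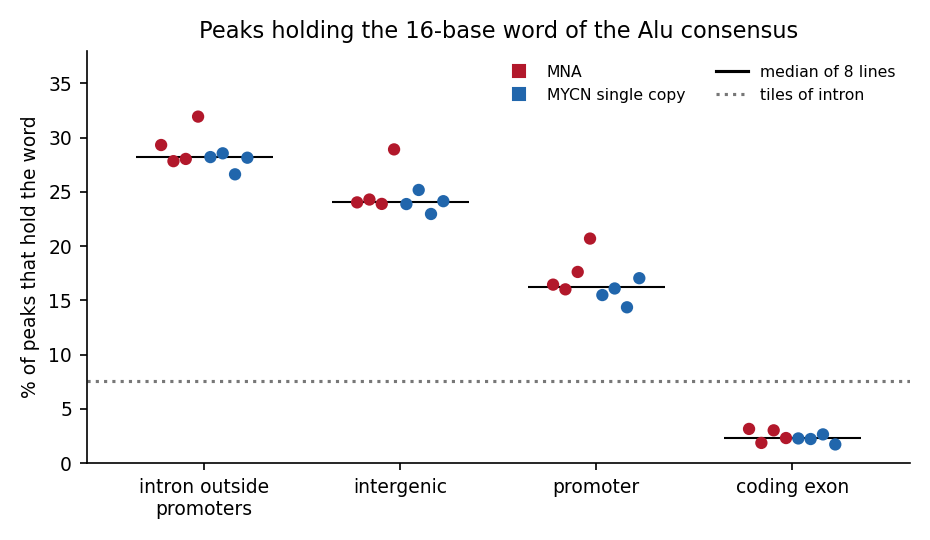
Percentage of peaks that hold the 16-base word CAAAGTGCTGGGATTA in each line (points, red MNA, blue *MYCN* single copy) for 4 classes of peaks, with the median of the 8 lines (bars) and the share of 466 bp tiles of eligible intron (dotted, 7.53%). Intronic peaks lie between 26.6% and 31.9%, above intergenic peaks of the same line in all 8 lines.

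The density of intronic peaks changed with their position in the gene. Introns shorter than 1 kb had a median of 51.3 peaks per Mb of eligible sequence, those of 1 to 5 kb 37.8, of 5 to 20 kb 38.8, of 20 to 100 kb 36.3 and those over 100 kb 25.6. Per 1000 CpG the same classes had 4.24, 3.42, 3.76, 3.88 and 3.21 peaks. At the median of the lines the shortest introns were highest and the longest lowest on both scales, but not every line had the shortest highest. The highest value of a single line was 54.6 per Mb under 1 kb and 56.5 at 5 to 20 kb. Per 1000 CpG it was 4.52 under 1 kb and 5.52 at 20 to 100 kb. With distance from the nearest TSS the density fell from 42.6 peaks per Mb at 1 to 2 kb, just outside the promoter window, to 21.9 at 50 to 200 kb and 10.5 beyond 200 kb. Per 1000 CpG it was 3.55 at 1 to 2 kb, 3.75 at 5 to 10 kb, 3.01 at 50 to 200 kb and 1.69 beyond 200 kb. The last class rests on 338 peaks in 3.67 Mb. Next to exons, within 200 bp, there were 43.7 peaks per Mb, against 14.0 at more than 100 kb from any exon. Peaks were placed by their midpoint, and the median width was 405 to 531 bp in single lines. A peak within 200 bp of an exon, or in an intron shorter than 1 kb, can thus reach into the exon. Coding exons had a median of 179 peaks per Mb, and the part of this overlap was not tested. With the gene body cut into 10 equal parts, the first had 37.1 and the last 32.9 peaks per Mb.

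**Figure D4:**
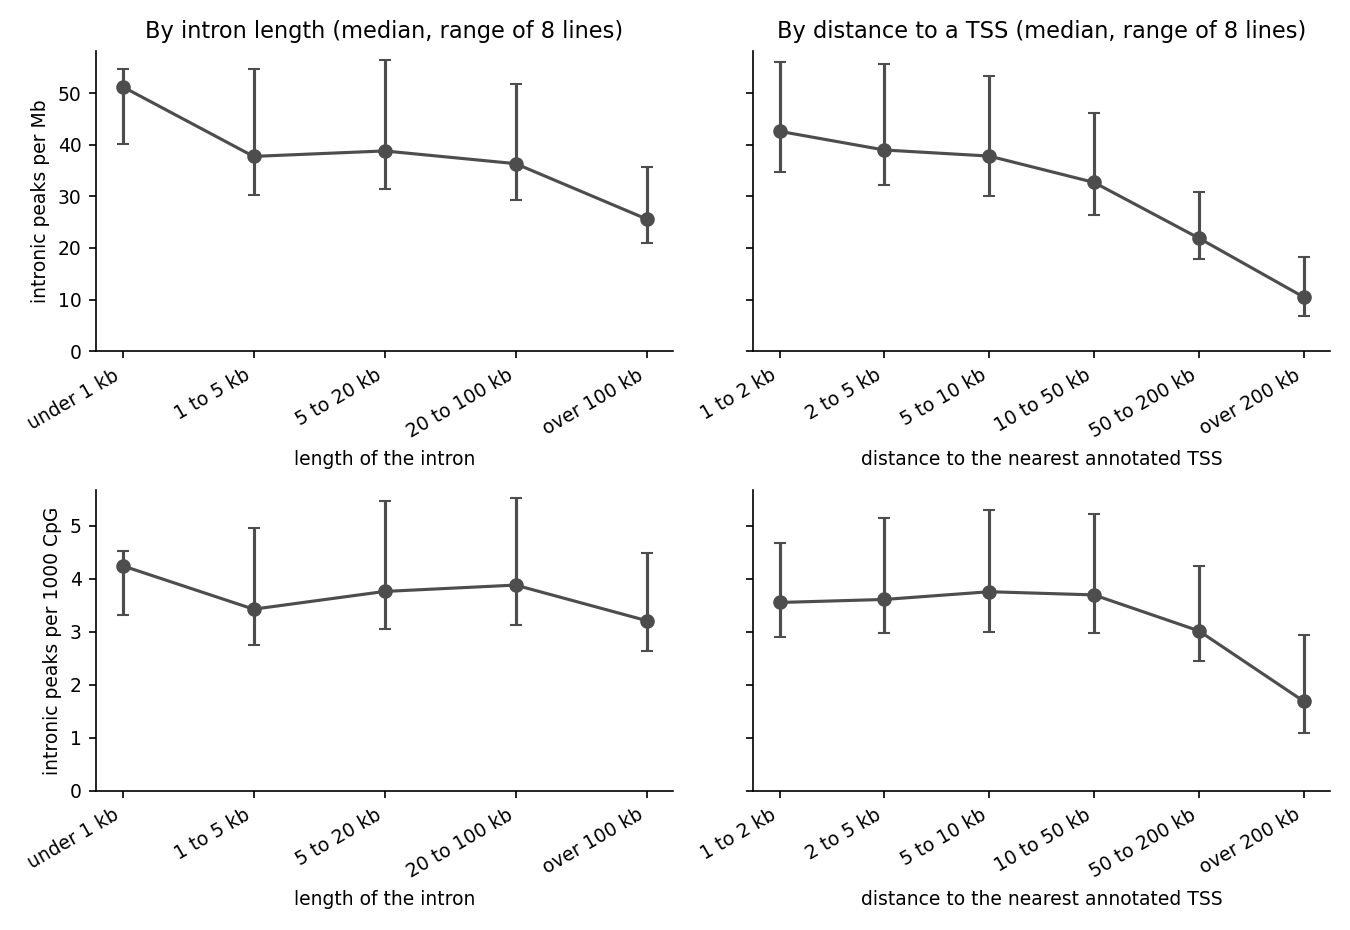
Intronic peaks per Mb (top) and per 1000 CpG (bottom) of eligible sequence by the length of the intron (left) and by the distance to the nearest annotated TSS (right), as the median (points) and the range (bars) of 8 lines. Density per Mb fell from 42.6 at 1 to 2 kb from a TSS to 10.5 beyond 200 kb, and density per 1000 CpG was between 3.55 and 3.75 up to 50 kb and 1.69 beyond 200 kb.

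First introns, which often hold regulatory elements, were compared with later introns of the same transcript model, with 1 canonical transcript per gene. The first introns had 30.6 (SJNB-1) to 53.6 (LAN-2) peaks per Mb and the later introns 27.4 to 48.3. The ratio was above 1 in all 8 lines, at 1.08 in SK-N-AS and 1.14 in IMR-32 at the extremes, and averaged 0.16 on the log2 scale or 1.12-fold (two-sided exact permutation test within lines, p = 0.00781, adjusted 0.00955). With scores of at least 100 it was 0.034 (exact p = 0.0625). First introns held 1.01 CpG per 100 bp and later introns 0.935. Per 1000 CpG the ratio was 0.991 to 1.05. Of the peaks in canonical introns, 25.6% (SK-N-AS) to 26.7% (IMR-32) were in the first. Of the intronic peaks, 9.32% to 10.7% lay outside the introns of a canonical transcript and are not in this comparison, and 4.82% lay in more than 1 gene.

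The density of intronic peaks also differed between chromosome arms, and on several arms the lines lay far apart. Relative to the autosomal density per Mb of the same line, arm 17q was high in all lines, with 1.32 in LAN-2, a median of 1.79 and 2.25 in IMR-32. Arm 1q was at 1.06 in CLB-GA, 1.76 at the median and 2.22 in LAN-2. Arm 1p was at 0.437 in CHP-902R and 1.62 in LAN-2, a span of 3.71-fold. On 15q, IMR-32 had 1.88 and SJNB-1 0.650, with the other 6 lines between 1.06 and 1.23. On 5p, LAN-2 had 1.61 and the other lines 0.582 to 0.916. Peaks outside introns followed the same arms, since they had 0.546 in CHP-902R and 1.72 in LAN-2 on 1p, and 1.82 in IMR-32 and 0.705 in SJNB-1 on 15q. These arm values do not take out CpG content, which was counted by chromosome only. Eligible intron held 1.32 CpG per 100 bp on chromosome 17, beside 0.946 on all autosomes. Per 1000 CpG, the medians over lines were 4.29 on chromosome 17, 4.92 on chromosome 1 and 5.04 on chromosome 7, beside 3.598 on all autosomes. NB lines often carry gains of 17q and losses of 1p or 11q. The copy number of the arms was not measured here, and its part in these values was not tested.

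**Figure D5:**
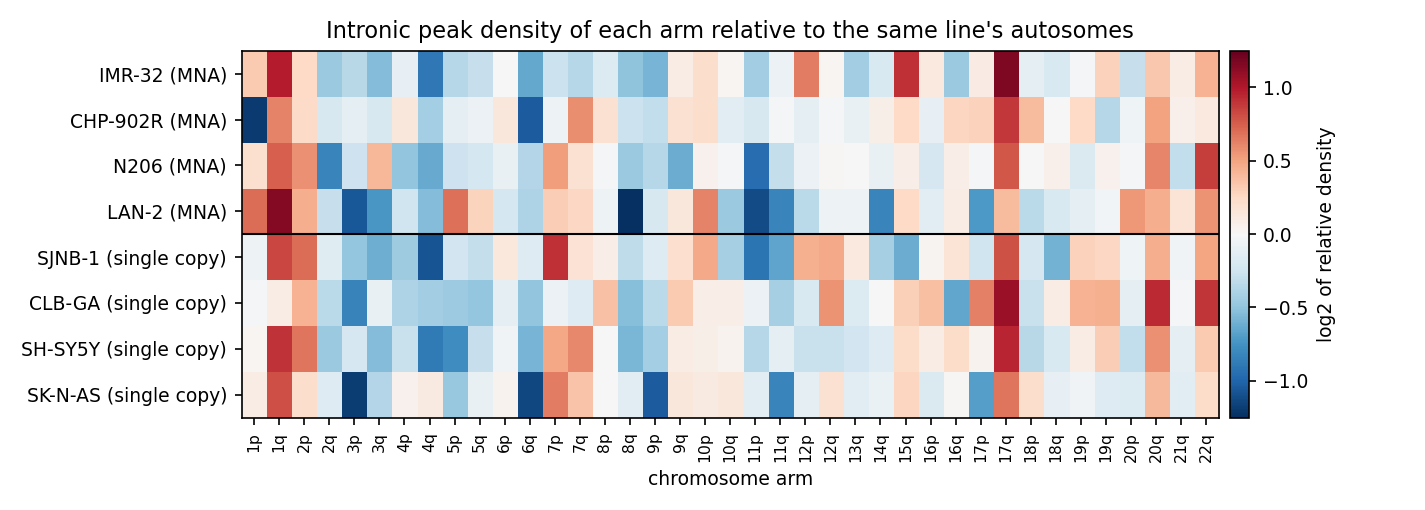
Density of intronic peaks per Mb in each autosomal arm relative to all autosomal introns of the same line, as log2 (colour). Lines are in rows (MNA above, *MYCN* single copy below the black line). Arm 17q is above the line's own mean in all 8 lines, while 1p is low in CHP-902R (relative density 0.437) and high in LAN-2 (1.62).

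Intronic peaks were seldom at the same place in all lines. Merging the intronic peaks of the 8 lines where they overlapped or touched gave 158575 regions, of which 55.4% had a peak in 1 line and 629, or 0.397%, in all 8. Of the 362998 regions merged from all autosomal peaks, 55.9% had a peak in 1 line and 0.649% in all 8. The share in 1 line was thus near that of all regions. It was 58.4% for intergenic, 47.7% for promoter and 33.7% for coding exon regions. The share in all lines was 0.544% for intergenic, 1.502% for promoter and 3.16% for coding exon regions. Between 67.2% (SK-N-AS) and 73.2% (CLB-GA) of a line's intronic peaks were overlapped by a peak of at least 1 other line. For a pair of lines, 18.8% to 33.7% of the intronic peaks of one were overlapped by a peak of the other, with a mean of 24.3% for pairs of the same *MYCN* status and 24.6% for pairs of different status. A longer list overlaps more peaks of any other, and both extremes involved LAN-2, which has the longest list. The lists hold no read counts, and the absence of a peak therefore does not show that a site is unmethylated.

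The 629 regions were wide, with a median of 1389 bp against 408 bp for regions of 1 line, partly by construction since merging more peaks widens a region. Their median CpG content was 2.85 per 100 bp. Of them, 362 were over 95% unique in windows of 45 bp. They lay in 552 genes, and 94 (14.9%) were on chromosome 1, 73 (11.6%) on chromosome 7 and 58 (9.22%) on chromosome 17. These chromosomes held 12.3%, 7.89% and 4.85% of all intronic peaks. Among the 10 with the highest mean score percentile were, beside those in *SIPA1L1* and *PLEKHA8*, regions in *CACNA2D4*, *GUCY2D*, *CACNA1B*, *SNTG2*, *SYT2* and *PMF1-BGLAP*. The *SIPA1L1* region had its lowest score in SK-N-AS (252) and its highest in LAN-2 (527), and the *PLEKHA8* region had 175 in CHP-902R and 673 in SJNB-1 at the extremes. The region in *GUCY2D*, which encodes a retinal guanylate cyclase, at chr17:7906644-7907569, had the highest CpG content of the 10 with 8.64 per 100 bp, and it spanned an intron of 83 bp with the exons around it. In *CACNA1B*, the gene of a neuronal N-type calcium channel, the region at chr9:140793960-140796060 in intron 3 had scores of 151 in CLB-GA and 265 in SJNB-1 at the extremes.

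The 10 genes with the most regions shared by all lines had 114470 to 907942 bp of eligible intron. *DLGAP2*, which encodes a postsynaptic scaffold protein, had the longest introns of them and 5 such regions, and *CACNA1C*, the gene of an L-type calcium channel, and *CDH4*, the gene of R-cadherin, had 4 each. In *DLGAP2* the number of intronic peaks was 82 in CLB-GA, 53 in IMR-32, 63 in SH-SY5Y, 66 in N206, 71 in CHP-902R, 54 in LAN-2, 42 in SK-N-AS and 56 in SJNB-1. In *CACNA1C* it was between 36 and 56. In *CDH4* LAN-2 had 15 peaks and the other lines 32 to 52. There were 14 genes with 3 such regions, and those with the shorter introns complete the 10. Of them, *RNF165*, *EGFR*, *CACNA1B*, *MSI2*, *TANC2* and *RBFOX3* are named here. *EGFR*, the gene of the epidermal growth factor receptor, had the shortest introns but one of these 10 genes and 13 to 26 peaks per line. *RBFOX3*, the gene of the neuronal marker NeuN, had 5 peaks in LAN-2, 10 in CLB-GA and 22 to 40 in the other lines.

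Of the 17065 autosomal protein-coding genes with eligible intron, 13740 (80.5%) had an intronic peak in at least 1 line, 4029 (23.6%) had one in all 8, and 3325 (19.5%) had none. The genes without a peak had a median of 2.36 kb of eligible intron and those with a peak in all lines 93.5 kb. The median density was 3.61 peaks per 100 kb. Among the 2724 genes with at least 100 kb, the highest density was that of *KANSL1*, a subunit gene of the NSL histone acetyltransferase complex, with 16.3 ± 4.62 peaks per 100 kb (SD, n = 8) and 16 peaks in CLB-GA and SJNB-1 to 36 in IMR-32. *KANSL1* lies in a region of segmental duplications, where the placement of reads is less certain. It was followed by *TRIM37* (13.6 ± 3.98), *VMP1* (12.7 ± 2.43) and *SPAG9* (12.03 ± 1.18), all 4 on the long arm of chromosome 17, and by *ARID4B* (11.8 ± 3.81) and *RPRD2* (11.7 ± 4.42) on chromosome 1. *USP32* and *SMURF2* on 17q, *EGFR* on 7p and *ENAH* on 1q completed the 10 densest. Of these 10 genes, 9 were thus on chromosomes 17 and 1.

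At the other end, 8 genes with at least 100 kb had no intronic peak in any line. The 5 longest of them were *DMRT1*, the gene of a testis-determining transcription factor, *TPTE2*, *CNTNAP3C*, *CSNKA2IP* and a gene without a symbol in the annotation. *DMRT1* had 122867 bp of eligible intron with 1.27 CpG per 100 bp, and the other 4 had 0.503 to 0.757. How well reads can be placed in these genes was not examined. The largest sums over the 8 lines were 571 peaks in *CNTNAP2*, 562 in *RBFOX1* and 529 in *PTPRN2*. In *RBFOX1*, a splicing factor gene of neurons, CHP-902R had 14 peaks, SK-N-AS 35, SH-SY5Y 60, SJNB-1 69, N206 74, LAN-2 93, IMR-32 95 and CLB-GA 122. In *CNTNAP2*, a neurexin family gene on 7q, SJNB-1 had 26 peaks and CHP-902R 132, and the other lines had 31 to 103.

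Gene lists were described by their density relative to all genes with eligible intron, as the ratio of the mean densities over the 8 lines. Of 22 long neural adhesion and synapse genes, 22 had an intronic peak and 19 had one in all lines, but their density was 0.581 of that of all genes (0.476 to 0.710 in single lines), and 3 of 22 were above the median gene. Their introns held 0.833 CpG per 100 bp against 0.949 in all genes. *DLGAP2* was the densest of them with 6.70 peaks per 100 kb and 2.20 CpG per 100 bp. *CNTN5*, a contactin gene, was among the 2 sparsest, with no peak in CLB-GA and SH-SY5Y and 19 in CHP-902R. The 12 long CpG-rich genes had a relative density of 1.55 with 1.92 CpG per 100 bp, and all 12 had a peak in every line. Per 1000 CpG their median gene had 2.75 peaks, against 3.19 for the median of all genes and 2.07 for the neural list.

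For the 22 neuroblastoma susceptibility and driver genes with eligible intron the relative density was 1.30 (0.929 to 1.70 in single lines), and 15 of 22 were above the median gene. The phosphatase gene *PTPN11* and *MDM2*, whose product degrades p53, were the densest, with 2 to 8 and 1 to 3 peaks per line. *NTRK2*, the receptor gene for BDNF, had 1 peak in SJNB-1 and 16 in LAN-2, and *CCND1*, the gene of cyclin D1, had none in any line. For the 18 DNA methylation and histone modifying enzymes it was 1.24, and *EZH2*, the histone H3K27 methyltransferase gene, had a peak in all lines, with 3 in IMR-32, SK-N-AS and SJNB-1 and 8 in SH-SY5Y and N206. For the 17 voltage-gated calcium and KCNQ potassium channel genes it was 0.997, and for the 8 genes with an imprinted element in an intron 1.42, which was 0.9999 with a score of at least 100.

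Short genes gave few peaks. Of the 44 cytosolic ribosomal protein genes 19 had an intronic peak in at least 1 line and 1 had one in all lines. Their pooled density was 1.39 relative to all genes, while the median gene of the list had no peak. Of the 10 adrenergic core transcription factor genes with eligible intron, which keep the sympathetic identity of NB cells, 6 had a peak in at least 1 line and none had one in all lines. Their relative density was 0.658, with 0.203 to 1.604 in single lines, and 0.991 with a score of at least 100. *MYCN* itself, with 935 bases of eligible intron, had 1 peak in SK-N-AS and none in the other lines, and *PHOX2A* had none.

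Regions that separated the *MYCN* groups in all 8 lines were rare. Of the 158575 regions, 204 had a peak in each MNA line and in no single copy line, and 58 had the reverse pattern. These are 0.129% and 0.0366% of the intronic regions, beside 0.121% and 0.0394% of the 362998 regions merged from all autosomal peaks. The shares of the intronic regions were thus near those of all regions. No single region can pass a correction over all regions with 4 lines against 4, and none was tested. CHP-902R is labelled as amplified but is missing where the study's main text lists its MNA lines. With CHP-902R left out, 709 and 110 of the same regions separated the groups (0.447% and 0.0694%, beside 0.401% and 0.0749% of all regions). This rise was not particular to CHP-902R. With regions merged again from the lines kept, the MNA count was 707 without CHP-902R. It was 731 without IMR-32, 708 without N206 and 541 without LAN-2. Leaving out a single copy line gave 276 to 347. With lists of equal length the counts were 103 and 76 (0.0776% and 0.0573%, beside 0.0701% and 0.06201% of all regions). The excess of the MNA direction was thus smaller with lists of equal length. Of the 204 regions, 1 lay within 1 Mb of *MYCN*. It lay in *NBAS*, with scores of 754 in IMR-32, 72.2 in N206, 549 in CHP-902R and 55.7 in LAN-2.

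The 204 regions lay in 200 genes, and 48 of the 190 in a canonical intron (25.3%) were in the first, which is near the share of all intronic peaks. The share was 30.4% for the single copy regions and 20.2% for the regions of all lines. Of the 204, 32 (15.7%) were on chromosome 1, beside 12.3% of all intronic peaks. After *CDH20*, the highest mean score percentiles were in *DNER*, *DPYD*, *CHN1*, *TARBP1*, *LRMDA*, *NTNG1*, *SFMBT1*, *BMT2* and *SIPA1L1*. The *CDH20* region had scores of 102 in IMR-32, 94.2 in N206, 120 in CHP-902R and 175 in LAN-2. In *DNER*, which encodes a neuronal ligand of Notch, the region at chr2:230461519-230461956 in intron 1 had scores of 90.02 in IMR-32, 166 in N206, 99.8 in CHP-902R and 157 in LAN-2. In *DPYD*, which encodes the first enzyme of pyrimidine breakdown, the region at chr1:98127416-98128251 in intron 8 had scores of 167, 115, 80.2 and 127 in the same order of lines. In *NTNG1*, a netrin-G gene of axon guidance, the region at chr1:107932045-107932694 in intron 3 had a score of 242 in LAN-2 and of 75.5 in CHP-902R. *SIPA1L1* thus held a region with a peak in all 8 lines in intron 12 and one with peaks in MNA lines alone in intron 2, at chr14:71937539-71938281.

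The 58 regions of the single copy lines lay in 58 genes, with 10 (17.2%) on chromosome 7, beside 7.89% of all intronic peaks. The highest mean score percentiles were in *FAM13C*, *KCNQ3*, *GSAP*, *CNTNAP3*, *PLA2G4A*, *RAMP3*, *NCKAP5*, *TMEM45B*, *ATG16L1* and *OSBPL5*. The *FAM13C* region had scores of 105 in CLB-GA, 91.6 in SH-SY5Y, 133 in SK-N-AS and 87.4 in SJNB-1. In *KCNQ3*, which encodes a subunit of the neuronal M-type potassium channel, the region lay in the last intron, and the scores were 133, 85.4, 126 and 70.8 in that order, but the peaks of the 4 lines shared only 35 bp. In *PLA2G4A*, the gene of a phospholipase that releases arachidonic acid, the region at chr1:186948971-186949561 in intron 17 had scores of 105, 66.4, 108 and 91.3. The *RAMP3* and *TMEM45B* regions had no interval common to the 4 lines. *CNTNAP3* has near-identical copies on chromosome 9, and 61.9% of the windows of its region occurred once. The share was 68.02% in *FAM13C*, 71.1% in *PLA2G4A*, 58.05% in *CHN1* and 76.1% in *DPYD*. By this measure the places of these peaks are less certain than those in *CDH20*, *DNER* and *NTNG1*, where all windows occurred once. The windows stand for a single read and leave out the other end of the fragment.

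Uniqueness was lower among the separating regions than among the shared ones. Of the 204 MNA regions 62 were over 95% unique, and of the 58 single copy regions 19 were, beside 362 of the 629 regions with a peak in all lines. The median score percentile within the lists was 51.1 for the MNA regions, 46.1 for the single copy regions and 76.6 for the regions of all lines, and in none of the separating regions did all 4 peaks reach a score of 100, which held for all 8 peaks in 42 of the 629. The differences between these sets were not tested.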

How the data were processed

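MBD-seq was done by the authors on DNA of the 8 NB cell lines. Per the labels, sheared DNA was enriched with the MethylCollector kit and sequenced on the Illumina platform. The submitters' processing notes name Bowtie 0.12.7, MACS and GRCh37. The deposited lists give the position and a score for each peak, called by the authors in each line on its own, and this score is -10 times the log10 of the MACS p-value, with a lowest value of 50 (p = 1e-05). The study's methods name a beta release of MACS, and the options and any input control are not given in the sources used here. Read counts are not part of the lists, and the study gives the number of reads only as a range over the lines. The lines thus differed in depth, but no depth could be set beside the value of a line. Intervals cover counting error only.

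Peak midpoints were placed on GENCODE release 44 in GRCh37 coordinates with Python 3.11.15, numpy 2.4.6, pandas 2.3.3 and matplotlib 3.10.9. A midpoint in more than 1 class was taken as promoter first, then coding exon, then other exon. N bases were left out of all lengths. The GRCh37 sequence served to count CpG and GC and to find which windows of 45 bp occur once, with both strands read as one. Peaks of any line that overlapped or touched were merged into regions, and a line had a region where any of its peaks overlapped it by at least 1 bp. The centromere of an arm was taken at the longest run of N. Groups from the labels (*MYCN* amplified or not) were tested by the difference of their means over lines in a two-sided exact permutation test, and classes by one that exchanges signs within lines, each adjusted by Benjamini-Hochberg. The steps were tested on simulated data.

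The intronic peaks and the gene lists were chosen with earlier results of these data known. Genes were named by fixed rules, which were the 10 genes with the most regions in all lines, the 10 densest and 5 sparsest genes with at least 100 kb of eligible intron, up to 10 separating regions in each direction by score percentile, and the 2 densest and 2 sparsest genes of each list, of which some are given. Some of the genes and sequences chosen by these rules are not reported here. Genes with the largest sum of peaks, the values by chromosome arm and the 16-base word were chosen after seeing the data. The alternatives were a score minimum of 100, lists cut to an equal 70816 peaks, the whole peak in intron, protein-coding annotation only, *MYCN* surroundings left out, peaks within 500 bp merged, counts per CpG, means in place of medians and each line left out in turn.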

Additional observations from a re-analysis of the deposited data

Results flagged for a closer look

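Among the 24 sets of 4 lines examined for a value that stands apart, 1 was found. The median GC content of intronic peaks in CHP-902R was 50.4%, while the other MNA lines had 49.6% to 49.7%, so that the gap of CHP-902R to the nearest line was 0.889 of the whole range of the group, above Dixon's critical value for 4 samples. Chance gives such a value in about 1 of 20 sets. The single copy lines had 49.5% to 51.7%, which includes the value of CHP-902R.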

How the results depend on the processing

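Of 233 alternative values over 29 results, 185 kept their direction and their side of the threshold or stayed within a set range. For shares this range was the counting interval, and for counts of separating regions a fixed factor of the main count. With a score of at least 100, the density of introns against the rest turned to -0.21 on the log2 scale (exact p = 0.0156), and with the whole peak required in intron it was -0.045 (exact p = 0.297), where peaks that reach out of the intron count as elsewhere by construction. With a score of at least 100 the first intron stood only 0.034 (log2) above later introns (exact p = 0.0625), 11 and 1 regions separated the groups in the MNA and single copy directions, and 78.03% of regions had a peak in 1 line and 0.141% in all lines. The relative density was then 1.11 for ribosomal protein genes, 0.9999 for genes with an imprinted element and 0.687 for neural adhesion genes, while the adrenergic genes, whose lines spread widely, had 0.991. The cause of these shifts, the smaller number of peaks included, was not tested. With the same number of peaks per line, 103 regions separated in the MNA direction, and 59.7% and 0.299% of regions had a peak in 1 and in all lines. These shares were 50.5% and 0.512% with peaks within 500 bp merged, and 57.4% to 59.6% and 0.485% to 0.551% with 1 line left out. The difference in intronic peaks between the groups rose to 8741 with protein-coding annotation only and to 10315.5 without IMR-32 (exact permutation p = 0.0286 for each), and ranged from 5569 to 10315.5 over the lines left out. Leaving out 1 line gave 276 to 731 regions in the MNA and 98 to 252 in the single copy direction, since fewer lines then had to be alike.

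No paired analysis was possible because the lines of both groups are different cultures and carry no shared replicate number from the labels. The comparison of peaks with repeat-masked bases was not run, since the reference sequence used here marks no repeats. Without read counts, the precision of a missing peak is unknown, and 1 sample per line leaves the spread between cultures of a line unmeasured.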
